A study of Mus musculus with 9 samples.

Results

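Mitochondrial ribosomal proteins are described here in gastrocnemius, the large calf muscle, of C57BL/6J mice. The members are the genes of the deposited table that are typed as protein coding and whose symbol is Mrpl or Mrps followed by a number and at most 1 letter. They number 77 of 35275 genes, namely 48 of the large subunit (Mrpl) and 29 of the small subunit (Mrps). The treated mice carried an osmotic minipump, an implanted capsule, filled with ammonium acetate (5 libraries, numbered 4 to 8), at a daily dose of 2.5 mmol per kg. The control mice carried a pump filled with sterile phosphate buffered saline (PBS, 4 libraries, numbered 4, 5, 7 and 8). All mice were wild type and 8 to 10 weeks old per the protocol, and the muscle was taken 4 weeks after the pump was placed. Neither the blood ammonia reached nor the sex of the mice is stated in the labels, nor whether the libraries come from separate animals, and a p-value here reflects only how far these libraries spread. Levels are FPKM, fragments scaled to gene length and to the library's total, as the authors deposited them. The libraries held from 24930547 to 41780251 reads recovered from these values.

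Mitochondria keep a ribosome of their own. It translates the few mRNAs made from mitochondrial DNA, all of which encode subunits of the oxidative phosphorylation complexes. Its rRNAs come from mitochondrial DNA, while all of its proteins are encoded in the nucleus, made in the cytosol and imported. The small subunit binds the mRNA and decodes it, and the large subunit joins the amino acids and lets the new chain out through a tunnel that faces the inner membrane. Part of the proteins descend from bacterial ribosomal proteins, and the others were added during the evolution of mitochondria. Skeletal muscle, rich in mitochondria, depends on this ribosome for its respiratory chain. Symbols do not follow the structure in every case. Mrps30 and Mrps18a carry small subunit names but sit in the large subunit, and Mrps36 is now placed in the 2-oxoglutarate dehydrogenase complex.

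Because all of these proteins are made from nuclear genes, the stretches just before their start sites are shown. Of the 77 members, 68 had a RefSeq promoter window (GRCm38.p6, 250 bases before to 50 bases after the annotated start), and 7 of them are printed here as the 200 bases before the start. The first 4 hold the binding motif of NRF1, a factor known for nuclear genes of mitochondria, a palindrome made of GCGCA followed directly by its reverse complement TGCGC. Mrpl9 holds this exact form, and the other 3 hold a form with a free base (GCGCA, any base, then GCGC, on either strand), which includes the exact one. The last 3 hold CCGGAAG, the motif of the ETS factor GABP (also called NRF2), known for the same genes. Every motif was searched on both strands. Capitals mark the matches, which also include a GGGCGG (SP1) in Mrps22 and a CCAAT in Mrps18a, and each sequence runs 5′ to 3′ on the gene's strand.
Mrpl9 (chr3:94443136-94443335, plus strand): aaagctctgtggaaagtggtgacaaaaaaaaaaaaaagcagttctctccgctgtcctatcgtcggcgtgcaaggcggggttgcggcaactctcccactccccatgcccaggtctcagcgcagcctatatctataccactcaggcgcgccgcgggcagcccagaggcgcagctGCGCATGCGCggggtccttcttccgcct
Mrpl12 (chr11:120484437-120484636, plus strand): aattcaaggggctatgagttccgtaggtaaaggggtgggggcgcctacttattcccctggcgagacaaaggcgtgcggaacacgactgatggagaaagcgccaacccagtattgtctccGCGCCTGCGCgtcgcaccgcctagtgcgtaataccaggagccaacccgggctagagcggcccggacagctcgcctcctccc
Mrpl45 (chr11:97315516-97315715, plus strand): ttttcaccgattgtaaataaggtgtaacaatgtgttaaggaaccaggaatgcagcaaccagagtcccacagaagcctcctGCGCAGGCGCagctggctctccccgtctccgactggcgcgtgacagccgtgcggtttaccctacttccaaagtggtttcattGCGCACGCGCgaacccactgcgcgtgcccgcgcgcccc
Mrps21 (chr3:95871515-95871714, minus strand): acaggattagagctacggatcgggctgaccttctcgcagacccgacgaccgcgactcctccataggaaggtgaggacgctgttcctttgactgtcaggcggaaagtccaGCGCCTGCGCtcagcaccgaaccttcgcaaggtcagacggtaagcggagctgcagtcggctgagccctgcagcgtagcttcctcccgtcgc
Mrpl52 (chr14:54426709-54426908, plus strand): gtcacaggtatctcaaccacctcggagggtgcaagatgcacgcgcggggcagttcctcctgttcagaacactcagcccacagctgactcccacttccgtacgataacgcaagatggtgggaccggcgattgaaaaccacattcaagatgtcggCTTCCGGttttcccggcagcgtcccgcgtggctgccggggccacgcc
Mrps18a (chr17:46110804-46111003, plus strand): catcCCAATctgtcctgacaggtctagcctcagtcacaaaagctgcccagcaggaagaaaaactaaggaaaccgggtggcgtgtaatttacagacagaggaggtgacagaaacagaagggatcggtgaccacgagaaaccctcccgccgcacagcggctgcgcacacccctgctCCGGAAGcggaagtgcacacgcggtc
Mrps22 (chr9:98601680-98601879, minus strand): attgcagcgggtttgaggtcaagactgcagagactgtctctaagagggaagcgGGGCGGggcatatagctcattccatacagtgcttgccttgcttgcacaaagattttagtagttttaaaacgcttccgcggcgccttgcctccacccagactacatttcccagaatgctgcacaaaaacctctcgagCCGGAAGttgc

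The exact NRF1 motif began 28 bases before the start of Mrpl9. With a free base it began 81 bases before Mrpl12, 91 bases before Mrps21, and 120 and 38 bases before Mrpl45. The ETS motif began 47, 26 and 11 bases before the starts of Mrpl52, Mrps18a and Mrps22. Counted over the windows of 300 bases, the exact NRF1 motif was in 3 of 68 members (4.41%), against 1.39% of all 15791 promoters. The free-base form was in 13 members (19.1%), against 6.93% of all promoters, with 10 of 42 large subunit and 3 of 26 small subunit windows among them. The ETS motif was in 24 members (35.3%), against 12.2% of all promoters. YY1, a factor that binds at many start sites, has the motif AAGATGGCG, which was in 8 members (11.8%), against 2.02% of all promoters. The other 3 motifs were about as frequent in members as elsewhere. GGGCGG was in 34 members (50%) and 48.3% of all promoters, CCAAT in 27 (39.7%) and 38.7%, and the E-box CACGTG in 5 (7.35%) and 8.08%. The windows of members and of all promoters were of like base composition, with a median GC content of 58.2% and 57.0%. These are counts of letters, not of bound sites.

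Of the 77 members, 76 passed the filter of a mean of 0.5 FPKM and were tested with the whole table of 11337 genes. Mrpl53 was listed at 0 in all 9 libraries. Of its exonic bases, 88.0% are shared with other annotated genes, the opposite-strand Ccdc142os and the same-strand Gm42688. The sources used here do not give how reads on such bases were counted. The other members reached from 3.44 FPKM for Mrpl19 to 289 FPKM for Mrpl42 as means over the 9 libraries. The smallest read number behind any value of a tested member was 179, for Mrps6. The median level of the large subunit genes was 24.8 FPKM with ammonium acetate and 23.01 FPKM with PBS. For the small subunit genes it was 13.8 FPKM with ammonium acetate and 11.7 FPKM with PBS. Across the 76 genes, log2 FPKM was lower in longer genes (Pearson's r -0.757, genes of the same libraries and so not independent).

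**Figure D1:**
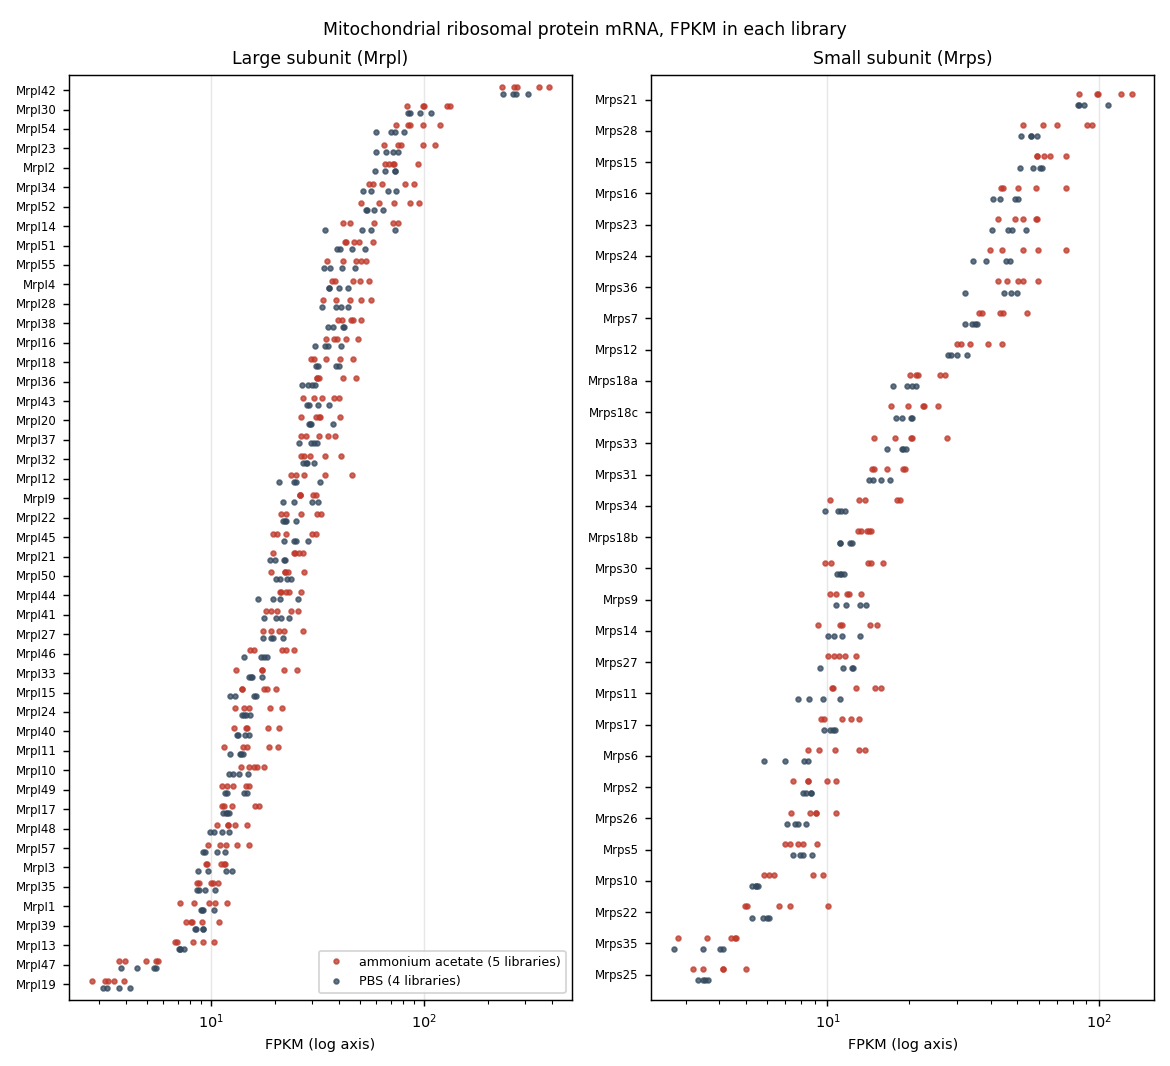
FPKM of each member (rows, ordered by level within the large and the small subunit) in the 5 ammonium acetate and 4 PBS libraries, on a log10 axis. Points are libraries, and Mrpl53, listed at 0, is left off the log axis. The spread between genes, from 3.44 to 289 FPKM as means of the tested members, is far wider than that between groups.

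Ammonium acetate libraries 6 and 8 stood apart from the rest in how values followed gene length. Genes under 1 kb in the whole table had a median of 0.29 (library 6) and 0.43 (library 8) on the log2 scale above the PBS mean, while genes over 4 kb had -0.46 and -0.30. In the other 3 ammonium acetate libraries the medians lay between -0.10 and 0.13 under 1 kb, and between -0.13 and 0.03 over 4 kb. Most members are short, with a median length of 1408 bases, against 3015 for all genes tested. The main counts and medians, and the fold changes of most genes named below, are therefore given with and without libraries 6 and 8. What set those libraries apart was not tested.

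Most mitochondrial ribosomal protein genes were slightly higher in muscle of ammonium acetate mice, and none passed the test. Of 76 members, 68 had a log2 fold change above 0 and 8 had one below 0, where 43.9% of all 11337 genes tested were above 0. The median over the members was 0.17, with quartiles of 0.10 and 0.22 and a range of -0.09 to 0.55, and the median over all genes was -0.03. Fold changes here are ammonium acetate over PBS on the log2(FPKM + 0.5) scale. In limma no member had an adjusted p under 0.05, and neither did any gene of the table (0%, smallest adjusted p 0.527). At an unadjusted p under 0.05, 10 members were higher (background 3.21% of all genes) and 0 were lower (background 5.36%). A test on the recovered reads with limma's voom gave 9 members higher, 0 lower and again no adjusted call. In that fit 2.41% of all genes were higher, and 653 of 11337 were lower. Without libraries 6 and 8 the median over the members was 0.03 and that over all genes was -0.0017, with 47 members above 0 (where 49.4% of all genes were) and 2 higher at an unadjusted p under 0.05 (where 1.22% of all genes were). In these bulk samples, fewer cells of a type and less RNA per cell cannot be told apart.

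Both subunits had nearly the same median. For the large subunit, 42 of 47 tested genes were above 0, 3 were at an unadjusted p under 0.05, and the median was 0.16. In the small subunit, 26 of 29 genes were above 0, 7 were at an unadjusted p under 0.05, and the median was 0.17. Over all genes tested, 43.9% were above 0 and 3.21% were higher at that p. With Mrps30 and Mrps18a counted in the large subunit and Mrps36 left out, the median was 0.17 in each. Genes with a bacterial counterpart had a median of 0.18 (42 of 46 above 0), and those without had 0.15 (25 of 29 above 0). The order of the 2 subunits was not tested. Without libraries 6 and 8 the medians were 0.01 for the large and 0.07 for the small subunit.

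In the large subunit, 3 of 47 members were higher at an unadjusted p under 0.05, where 3.21% of all genes were. Of these 3, Mrpl10 belongs to the stalk. Mrpl10 anchors the stalk that recruits translation factors. It had 15.1, 15.9, 16.6, 13.9 and 17.8 FPKM with ammonium acetate, against 12.1, 14.97, 12.7 and 13.6 FPKM with PBS. Every ammonium acetate library was above the PBS mean, but the groups overlapped, with a log2 fold change of 0.24 (SE 0.10, limma, unadjusted p = 0.04) that was 0.16 without libraries 6 and 8. Mrpl12, the stalk protein that is also known to bind the mitochondrial RNA polymerase, had 25.3, 23.7, 27.4, 34.4 and 46.2 FPKM with ammonium acetate, against 25.2, 32.6, 20.9 and 24.6 FPKM with PBS. Only libraries 7 and 8 exceeded the highest PBS library, and the log2 fold change of 0.25 had an unadjusted p of 0.22 in limma and was 0.10 without libraries 6 and 8. Mrpl11, at the base of the stalk, averaged 16.01 ± 3.68 FPKM with ammonium acetate (SD, n = 5) and 13.6 ± 0.813 FPKM with PBS (SD, n = 4). Its log2 fold change of 0.20 was -0.01 without libraries 6 and 8.

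Mrpl54 and Mrpl36 were the other 2 large subunit genes at an unadjusted p under 0.05. Mrpl54, a protein that bacteria lack, had 74.3, 84.5, 99.6, 86.5 and 119 FPKM with ammonium acetate, against 80.8, 73.4, 69.98 and 59.6 FPKM with PBS. The highest PBS library lay above the lowest ammonium acetate library, and the log2 fold change of 0.38 (SE 0.14, limma, unadjusted p = 0.021) was 0.21 without libraries 6 and 8. Mrpl36 is one of the smallest proteins of the large subunit. It had 32.4, 31.5, 41.9, 31.7 and 48.3 FPKM with ammonium acetate, against 29.8, 28.7, 30.9 and 26.7 FPKM with PBS. All 5 ammonium acetate libraries lay above all 4 PBS libraries, by 0.608 FPKM at the closest pair, with a log2 fold change of 0.33 (SE 0.14, limma, unadjusted p = 0.032) that was 0.13 without libraries 6 and 8.

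Mrpl42, a protein without a bacterial counterpart, was by far the highest member. It had 234, 266, 389, 276 and 349 FPKM with ammonium acetate, against 311, 263, 273 and 236 FPKM with PBS. PBS library 4 exceeded 3 of the 5 ammonium acetate libraries, and the log2 fold change of 0.14 was -0.06 without libraries 6 and 8. Next came Mrpl30, which averaged 109 ± 21.1 FPKM with ammonium acetate (SD, n = 5) and 93.8 ± 10.6 FPKM with PBS (SD, n = 4). The groups of Mrpl30 overlapped, with a log2 fold change of 0.20 that was 0.01 without libraries 6 and 8 (unadjusted p of 0.18 with them, in limma).

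In the catalytic core and at the exit tunnel, no named gene was at an unadjusted p under 0.05. Mrpl2, close to the peptidyl transferase centre, averaged 74.6 ± 11.04 FPKM with ammonium acetate (SD, n = 5) and 67.9 ± 7.03 FPKM with PBS (SD, n = 4), and Mrpl3, variants of which cause a cardiomyopathy in humans, averaged 10.7 ± 1.09 FPKM with ammonium acetate (SD, n = 5) and 10.7 ± 1.81 FPKM with PBS (SD, n = 4). The 2 means of Mrpl3 differed by less than either SD, with a log2 fold change of 0.01 (SE 0.13) that was -0.07 without libraries 6 and 8. Mrpl22 and Mrpl23 line the tunnel, with log2 fold changes of 0.21 and 0.31 (unadjusted p of 0.15 and 0.065 in limma) that were 0.03 and 0.10 without libraries 6 and 8. A pseudogene copy of Mrpl23 also holds reads, so its value is uncertain, and the same holds for Mrpl48 and Mrps36. Mrpl44, at the tunnel exit and likewise tied to cardiomyopathy in humans, averaged 23.02 ± 2.23 FPKM with ammonium acetate (SD, n = 5) and 20.8 ± 3.76 FPKM with PBS (SD, n = 4). The log2 fold changes of Mrpl2 and Mrpl44 were 0.13 and 0.16, and 0.03 and 0.08 without libraries 6 and 8. Mrpl45, which holds the ribosome at the inner membrane, had 22.6, 20.6, 19.6, 31.2 and 30 FPKM with ammonium acetate, against 25.1, 28.6, 22.04 and 24.5 FPKM with PBS. Libraries 7 and 8 of the ammonium acetate group were above, and libraries 4 to 6 below, the PBS mean, and the log2 fold change was -0.03. It was 0.03 under median-of-ratios scaling, so its sign is not settled.

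Of the other large subunit genes named here, Mrpl52 and Mrpl21 had log2 fold changes of 0.31 and 0.22, with unadjusted p of 0.087 and 0.068 in limma, and of 0.08 and 0.14 without libraries 6 and 8. Mrpl20 had a log2 fold change of 0.05, and -0.05 without libraries 6 and 8. Mrpl1, which forms the stalk on the other side of the subunit, averaged 9.54 ± 1.85 FPKM with ammonium acetate (SD, n = 5) and 9.41 ± 0.672 FPKM with PBS (SD, n = 4), with a log2 fold change of 0.00013 that was -0.16 without libraries 6 and 8.

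Mrps6, Mrps11, Mrps7, Mrps10, Mrps34, Mrps28 and Mrps18b were the 7 small subunit genes at an unadjusted p under 0.05. They were 7 of 29 genes, where 3.21% of all genes were higher at that p. In the platform, the side lobe of the subunit, Mrps6 had 9.33, 8.49, 10.7, 13.02 and 13.8 FPKM with ammonium acetate, against 6.97, 8.45, 5.83 and 8.22 FPKM with PBS. Every ammonium acetate library was above every PBS library, though library 5 exceeded the highest PBS library by only 0.0346 FPKM. The log2 fold change of 0.55 (SE 0.16, limma, unadjusted p = 0.0054) was the largest of any member, with an adjusted p of 0.527, and was 0.44 without libraries 6 and 8. Of its exonic bases, 10.4% are shared with Slc5a3 on the same strand, where no strand setting could tell the reads apart. Mrps11, also of the platform, had 10.4, 10.4, 14.9, 12.8 and 15.8 FPKM with ammonium acetate, against 9.63, 11.2, 7.797 and 8.57 FPKM with PBS. PBS library 5 exceeded ammonium acetate libraries 4 and 5, and the log2 fold change of 0.44 (SE 0.15, limma, unadjusted p = 0.013) was 0.26 without libraries 6 and 8.

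Mrps7 and Mrps10 belong to the head, the part of the subunit that swivels as the mRNA moves. Mrps7 had 36.95, 36.1, 44.4, 43.1 and 54.5 FPKM with ammonium acetate, against 34.1, 34.9, 32.2 and 35.5 FPKM with PBS. The groups were separated by 0.653 FPKM at the closest pair, and the log2 fold change of 0.31 (SE 0.12, limma, unadjusted p = 0.024) was 0.18 without libraries 6 and 8. Mrps10 had 6.07, 5.82, 9.61, 6.37 and 8.85 FPKM with ammonium acetate, against 5.55, 5.44, 5.25 and 5.43 FPKM with PBS. Its PBS libraries lay within 0.305 FPKM of each other while libraries 6 and 8 stood above the other 3 of the ammonium acetate group. The log2 fold change of 0.38 (SE 0.15, limma, unadjusted p = 0.028) was 0.15 without those 2 libraries. Mrps18b is 1 of 3 relatives of the bacterial S18 protein. Only Mrps18c is counted here as its counterpart, since the usual ribosomal nomenclature gives the bacterial name to Mrps18c and names of their own to Mrps18a and Mrps18b. Mrps18b had 12.98, 14.2, 13.97, 13.3 and 14.5 FPKM with ammonium acetate, against 12.3, 11.1, 11.2 and 12.1 FPKM with PBS. Its libraries varied least within the ammonium acetate group among the 10 genes, at 13.8 ± 0.628 FPKM with ammonium acetate (SD, n = 5) and 11.7 ± 0.6198 FPKM with PBS (SD, n = 4). The log2 fold change of 0.23 (SE 0.09, limma, unadjusted p = 0.022) stayed at 0.20 without libraries 6 and 8, and 30.5% of its exonic bases are shared with another gene. Of its relatives, Mrps18a had 0.23 (unadjusted p = 0.071 in limma) and Mrps18c had 0.14 (unadjusted p = 0.27 in limma), which were 0.09 and 0.03 without libraries 6 and 8.

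Mrps34 and Mrps28 completed the 7. Mrps34, a protein that bacteria lack and variants of which cause Leigh syndrome in humans, had 10.2, 13.7, 18.1, 13.04 and 18.5 FPKM with ammonium acetate, against 11.2, 10.9, 11.6 and 9.83 FPKM with PBS. Libraries 5 to 8 of the ammonium acetate group lay above all PBS libraries and library 4 inside their range. The log2 fold change of 0.39 (SE 0.16, limma, unadjusted p = 0.033) was 0.16 without libraries 6 and 8. Of its exonic bases, 77.8% are shared with the neighbouring Mapk8ip3 (opposite strand) or Nme3 (same strand). How reads on these bases were counted is not given, so its value is uncertain. Mrps28, named as the counterpart of the bacterial S1 protein, had 52.7, 62.4, 94.2, 70.1 and 90.1 FPKM with ammonium acetate, against 59.2, 56.4, 51.8 and 56.2 FPKM with PBS. Only ammonium acetate library 4 was inside the range of the PBS libraries, and the log2 fold change of 0.37 (SE 0.16, limma, unadjusted p = 0.04) was 0.13 without libraries 6 and 8.

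The 5 members whose groups did not overlap were Mrps6, Mrps7, Mrps10, Mrps18b and Mrpl36, all higher with ammonium acetate, where 1.25% of all genes tested did so. In the deposited table (mm10) these protein-coding genes lie at chr16:92058270-92112227, chr11:115603925-115608036, chr17:47368887-47381417, chr17:35910379-35916389 and chr13:73331009-73332175. None lay lower in every library, against 0.873% of all genes. With libraries 6 and 8 left out, Mrps6 and Mrps18b were the members that kept an unadjusted p under 0.05.

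In the decoding region, Mrps12, known from bacteria for the accuracy of decoding, averaged 35.5 ± 5.897 FPKM with ammonium acetate (SD, n = 5) and 29.7 ± 2.19 FPKM with PBS (SD, n = 4), with a log2 fold change of 0.24 and an unadjusted p of 0.073 in limma. It was 0.08 without libraries 6 and 8. Mrps5, at the mRNA entry, averaged 7.86 ± 0.831 FPKM with ammonium acetate (SD, n = 5) and 8.06 ± 0.543 FPKM with PBS (SD, n = 4). Its log2 fold change of -0.04 was 0.02 under median-of-ratios scaling and 0.08 with the length trend removed. Mrps21 and Mrps15 were, with Mrps28, the most abundant small subunit transcripts. Mrps21 had 84.7, 98.4, 121, 99.4 and 132 FPKM with ammonium acetate, against 108, 88.3, 84.8 and 83.98 FPKM with PBS. PBS library 4 exceeded 3 of the ammonium acetate libraries, with a log2 fold change of 0.22 (unadjusted p of 0.14 in limma) that was 0.05 without libraries 6 and 8. Mrps15 had a log2 fold change of 0.16, Mrps36 of 0.21 and Mrps30 of 0.17, and of 0.07, 0.12 and 0.01 without libraries 6 and 8. Mrps22, variants of which cause a mitochondrial disease in humans, had 4.97, 5.05, 7.29, 6.602 and 10 FPKM with ammonium acetate, against 6.07, 5.29, 5.79 and 5.99 FPKM with PBS. Ammonium acetate library 8 was the highest and library 4 the lowest of all, and the log2 fold change of 0.17 was -0.07 without libraries 6 and 8. Mrps25, the lowest of the small subunit, averaged 3.99 ± 0.706 FPKM with ammonium acetate (SD, n = 5) and 3.500 ± 0.134 FPKM with PBS (SD, n = 4), with a log2 fold change of 0.15 that was 0.03 without libraries 6 and 8, and with 69.8% of its exonic bases shared with Nr2c2.

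The 8 members below 0, named after their values were seen, were Mrps9, Mrpl19, Mrps5, Mrpl45, Mrps27, Mrpl47, Mrpl39 and Mrpl49. Their log2 fold changes ran from -0.09 to -0.01, and the smallest unadjusted p among them was 0.43 in limma (Mrps9). Mrps9 had 10.2, 10.7, 11.8, 11.99 and 13.2 FPKM with ammonium acetate, against 11.7, 13.8, 10.8 and 13.2 FPKM with PBS. The groups overlapped, and of these 8 only Mrps9 kept its sign under all 23 alternatives. Under at least 1 of the 3 other scalings, 10 members took the other sign, namely 7 of these 8 and 3 of those above 0.

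**Figure D2:**
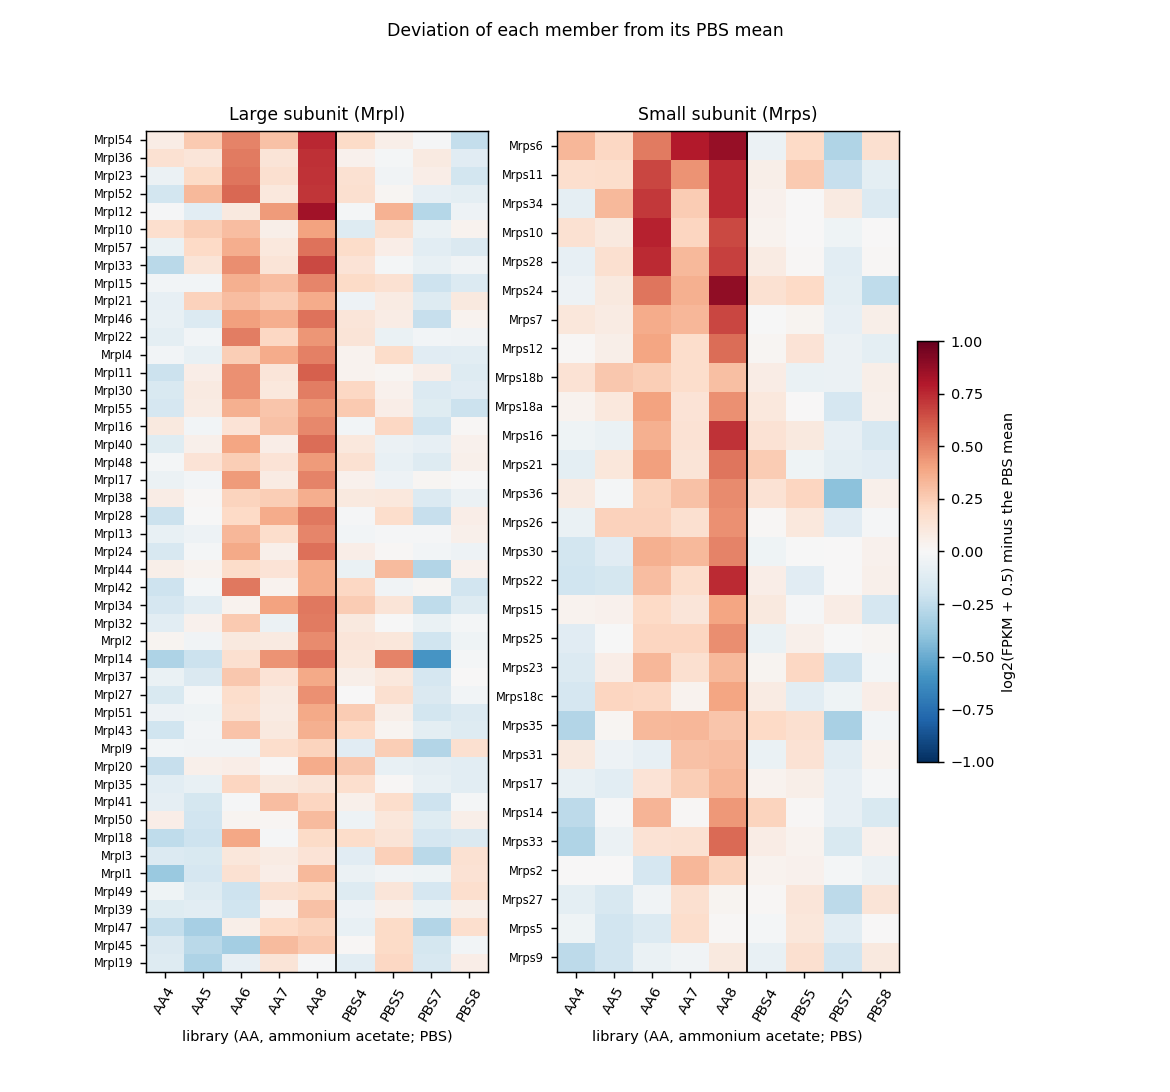
Deviation of log2(FPKM + 0.5) from the mean of the PBS libraries for each tested member (rows) in each library (columns, ammonium acetate left of PBS). The colour scale runs from -1 to 1, and ammonium acetate library 8, with a median of 0.46, is the darkest column in both subunits.

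The members' level shifted from library to library. Relative to the PBS mean, the median member stood at -0.08, -0.02, 0.27, 0.16 and 0.46 in ammonium acetate libraries 4 to 8, against 0.06, 0.07, -0.11 and -0.02 in PBS libraries 4, 5, 7 and 8. Libraries 4 and 5 of the ammonium acetate group thus lay within the range of the PBS libraries. Of 76 members, 19, 34, 65, 73 and 75 were above the PBS mean in ammonium acetate libraries 4 to 8, against 54, 58, 9 and 34 in PBS libraries 4, 5, 7 and 8, so that in ammonium acetate library 5 and PBS library 8 they were split nearly evenly. Library 8 was the highest of all 9 for 59 of 76 members, library 6 for 7, library 7 for 6 and PBS library 5 for 4. The lowest value was in ammonium acetate library 4 for 24 members, library 5 for 5 and library 6 for 4, against 30 in PBS library 7, 11 in PBS library 8 and 1 each in PBS libraries 4 and 5. Summed over the members, FPKM ranged from 2094 to 3146 with ammonium acetate and from 2058 to 2418 with PBS.

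The large subunit's share was slightly smaller with ammonium acetate. Summed FPKM of the large over the small subunit was 2.286, 2.314, 2.332, 2.317 and 2.296 in ammonium acetate libraries 4 to 8, against 2.446, 2.418, 2.389 and 2.331 in PBS libraries 4, 5, 7 and 8. The groups overlapped by the closest pair only, ammonium acetate library 6 and PBS library 8. Mrpl42 alone made up between 10.9% and 13.8% of the members' sum. Without it the ratio ranged from 1.87 to 1.96 with ammonium acetate and from 1.94 to 2.04 with PBS. These ratios are a description, and no test was made of them.

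Shorter members had higher fold changes, as did shorter genes in the whole table. Across genes, the log2 fold change was lower in longer genes, with Pearson's r of -0.357 over the 76 members and -0.462 over all 11337 genes. Under 1 kb, 22 of 22 members were above 0 with a median of 0.21, where all genes of that length had 0.17. From 1 to 2 kb the members had 0.18 (24 of 26 above 0), where all genes had 0.10. From 2 to 4 kb they had 0.10 (15 of 19 above 0), where all genes had -0.02. Over 4 kb, where only 9 members fall, they had 0.17 (7 above 0), where all genes had -0.17. The share of all genes above 0 within each length class was not counted. Without libraries 6 and 8 the medians of the members in the 4 classes were 0.04, 0.06, -0.03 and 0.03, against 0.03, 0.03, 0.0075 and -0.04 for all genes. With each library's trend on gene length removed from all genes, the members had a median of 0.08 and 58 of 76 were above 0, with 7 higher at an unadjusted p under 0.05. All genes then had a median of 0.008, with 51.6% above 0 and 3.87% higher at an unadjusted p under 0.05.

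**Figure D3:**
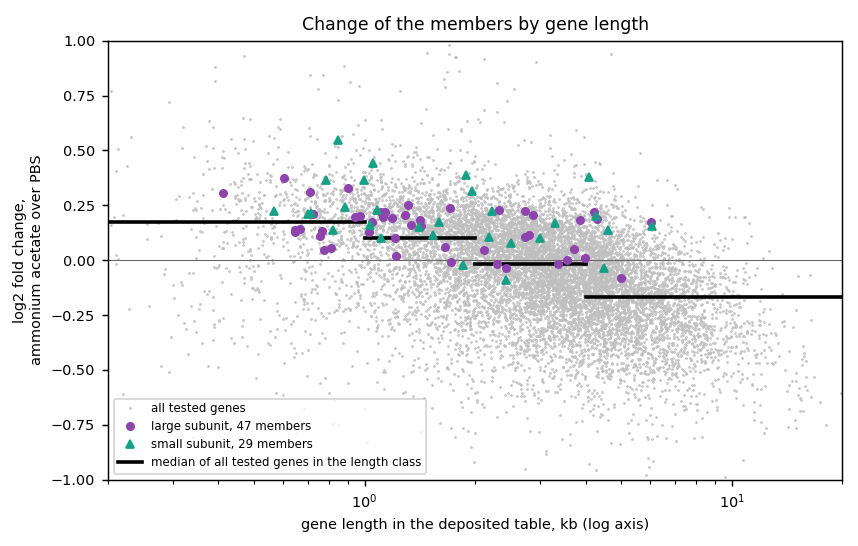
Log2 fold change (ammonium acetate over PBS) against gene length in kb, on a log axis, for all tested genes (grey) and members (coloured by subunit). Black bars are the medians of all tested genes in 4 length classes, and the axes leave out 57 genes. The members' median was 0.21 under 1 kb, where all genes had 0.17, and 0.17 over 4 kb, where all genes had -0.17.

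The other genes of mitochondrial translation were described from lists, and no gene in them had an adjusted p under 0.05. Of 5 mitoribosomal proteins listed under other symbols (Dap3, Ptcd3, Aurkaip1, Chchd1 and Gadd45gip1), 4 were above 0 with a median of 0.26, against 0.04 without libraries 6 and 8. Aurkaip1, a small subunit protein also known as a kinase-interacting protein, had 49.6, 50.5, 71.04, 52.7 and 81.02 FPKM with ammonium acetate, against 49.96, 48.9, 45 and 45.3 FPKM with PBS. Libraries 6 and 8 stood out, with a log2 fold change of 0.34 (SE 0.15, limma, unadjusted p = 0.044) that was 0.11 without them. Gadd45gip1, a large subunit protein also called CRIF1, had a log2 fold change of 0.26, and of 0.11 without libraries 6 and 8. Of 27 genes of ribosome assembly and rRNA modification, 19 were above 0 with a median of 0.09, against 0.04 without libraries 6 and 8. Malsu1, which keeps the large subunit from joining too early, had 11.2, 12.8, 14.6, 11.8 and 18.8 FPKM with ammonium acetate, against 11.5, 10.8, 10.6 and 9.38 FPKM with PBS. The groups overlapped, with a log2 fold change of 0.35 (SE 0.14, limma, unadjusted p = 0.032) that was 0.17 without libraries 6 and 8. Mpv17l2, a membrane protein of assembly, had 0.24, and 0.11 without them.

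The list of translation factors, which start, extend and end the chain, also holds genes of other roles, such as Oxa1l, Taco1 and Mtfmt. The median of this list was 0.05 (0.02 without libraries 6 and 8). Of its genes, 9 of 15 were above 0 and none was at an unadjusted p under 0.05 in limma. The smallest p was that of Mtrf1, a release factor, at 0.15 with a log2 fold change of 0.16 that was 0.07 without libraries 6 and 8. The list of mitochondrial aminoacyl-tRNA synthetases, which charge tRNAs, also holds Qrsl1, Pet112 (Gatb) and Gatc, subunits of an enzyme that amends a charged tRNA. The median of this list was -0.0011 (0.02 without libraries 6 and 8), with 10 of 20 genes above 0. Lars2, the leucine enzyme, averaged 271 FPKM over the 9 libraries, where the next highest gene of the list, Gatc, averaged 17.6 FPKM. Whether all reads counted for Lars2 come from its mRNA was not tested. Lars2 had 313, 244, 217, 393 and 358 FPKM with ammonium acetate, against 215, 223, 271 and 209 FPKM with PBS. Libraries 5 and 6 lay inside the PBS range and the other 3 above it, with a log2 fold change of 0.38 (SE 0.17, limma, unadjusted p = 0.048) that was 0.44 without libraries 6 and 8. Vars2, the valine enzyme, had a log2 fold change of -0.23, and of -0.14 without them.

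Transcripts of mitochondrial DNA had a median below 0, unlike the ribosomal proteins. Of the 13 mitochondrially encoded mRNAs, 4 were above 0 with a median of -0.20, against -0.17 without libraries 6 and 8, where all 13 were below 0. Split by level after the values were seen, the 7 transcripts with means of 4468 to 28119 FPKM were all below 0. The 4 above 0 (mt-Nd3, mt-Co3, mt-Atp6 and mt-Atp8) were among the 6 with means of 0.815 to 183 FPKM. These 6 lie side by side on the mitochondrial chromosome, at positions 7013 to 10173, between mt-Co1 and mt-Nd4. Of them, mt-Atp8 rests on 0 to 10 reads per library. Whether the low values reflect RNA levels or how reads were mapped and counted was not tested. Of the 13, only mt-Nd5, a complex I subunit, was at an unadjusted p under 0.05 in limma. It had 5408, 4911, 3953, 5674 and 3866 FPKM with ammonium acetate, against 6347, 6874, 5418 and 6499 FPKM with PBS. The highest ammonium acetate value, in library 7, was above the lowest PBS value, in library 7, with a log2 fold change of -0.41 (SE 0.18, limma, unadjusted p = 0.038) that was -0.23 without libraries 6 and 8. A further complex I transcript, mt-Nd4l, is one of the 6 at low level, with a mean of 29.3 FPKM and a log2 fold change of -0.35, against -0.17 without those libraries. The 2 mitochondrial rRNAs were not analysed here. The list of mitochondrial transcription and mRNA stability also holds Polg, Polg2, Peo1 and Ssbp1, which serve mitochondrial DNA replication. Of its 15 tested genes, 8 were above 0 with a median of 0.02, against -0.03 without libraries 6 and 8. Lrpprc, which stabilises mitochondrial mRNAs, had 23.97, 19.9, 12.2, 24.98 and 12.8 FPKM with ammonium acetate, against 22.1, 28.6, 22.2 and 29.9 FPKM with PBS. Libraries 6 and 8 were the lowest, with a log2 fold change of -0.49 (SE 0.22, limma, unadjusted p = 0.043) that was -0.15 without them. Tefm, the elongation factor of mitochondrial transcription, had 0.20, and -0.01 without them. Among 9 regulators of nuclear genes for mitochondria, 3 were above 0 with a median of -0.03 (0.05 without libraries 6 and 8), and none was at an unadjusted p under 0.05. Gabpa, a subunit of GABP, had -0.29 and Ppargc1b, a coactivator of mitochondrial genes, had -0.41, which were -0.14 and -0.14 without those libraries.

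**Figure D4:**
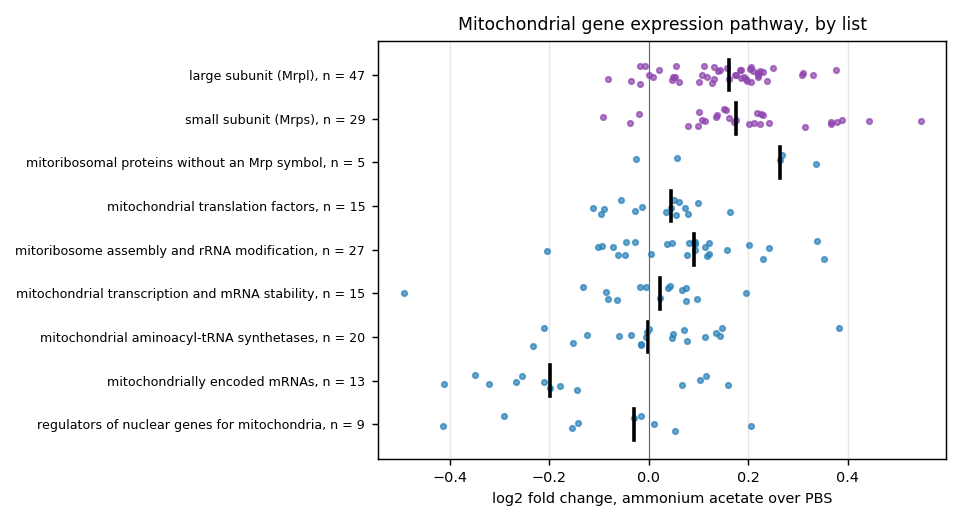
Log2 fold change (ammonium acetate over PBS) of every tested gene in the members' 2 subunits and in the lists of mitochondrial translation, with a bar at each median. The medians run from 0.26 for mitoribosomal proteins under other symbols to -0.20 for mitochondrially encoded mRNAs.

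Median fold changes with and without each motif were set side by side over the members with a promoter window, all libraries included. With the exact NRF1 motif, in 3 members, the median was 0.06, against 0.17 in the 64 without it. With the free-base form it was 0.16, against 0.16 without it. The ETS motif gave 0.18 with and 0.16 without, and YY1 likewise 0.18 and 0.16. For GGGCGG the medians were 0.17 with and 0.16 without, for CCAAT 0.15 with and 0.17 without, and for CACGTG, in 5 members, 0.13 with and 0.17 without. These are descriptions without a test.

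Many of the genes share a start region with a neighbour on the other strand. Within 1000 bases, 30 of 77 members (39.0%) had a protein-coding neighbour that starts in the opposite direction, against 2317 of 22026 protein-coding genes (10.5%). The fold changes of the pairs below are those of all 9 libraries. In 1 case both genes are members, Mrpl46 and Mrps11, whose starts overlap (a distance of -412 bases) and which had log2 fold changes of 0.22 and 0.44. Several pairs had unlike values. Mrps7 had 0.31 and its neighbour Gga3 had -0.33. Mrps18b had 0.23 and Ppp1r10 had -0.14. Mrps12 had 0.24 and Sars2, a mitochondrial synthetase, had -0.03. In other pairs both were above 0, as in Mrpl32 (0.13) with the proteasome gene Psma2 (0.19), and Mrpl40 (0.19) with Hira (0.11). Of all members, 28 share exonic bases with another annotated gene, and in 3 of them most exonic bases are shared (Mrpl53, Mrps34 and Mrps25). The shares were smaller in Mrpl10 (14.1%), Mrps7 (11.9%), Mrps11 (7.97%) and Mrpl36 (2.58%). The sources used here give no strand setting for the counting, so to which gene reads on shared bases were counted is not known.

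Muscle fibre markers were at high levels in every library, with sums of 71330 to 106300 FPKM with ammonium acetate and 69100 to 84910 FPKM with PBS, although Tnnc2, itself a defining gene of fast fibres, averaged 0.138 FPKM. Of the 9 tested fibre markers 6 were above 0, with a median of 0.17, against 0.05 without libraries 6 and 8. The other 3 were the myosins Myh1, Myh2 and Myh4, with log2 fold changes of -1.02, -0.92 and -0.28 (unadjusted p of 0.012, 0.049 and 0.33 in limma). Without those libraries they had -0.54, -0.30 and 0.09. Their lengths of 6081, 6083 and 6016 bases fall in the class over 4 kb, which was low in libraries 6 and 8. With each library's length trend removed, their log2 fold changes were -0.83, -0.72 and -0.08. The part of gene length in these values was not tested. Endothelial markers (8 of 8 below 0) summed to 50.5 to 116 FPKM with ammonium acetate, lowest in libraries 6 and 8 at 50.5 and 65.1 FPKM, and to 103 to 122 FPKM with PBS. Their median log2 fold change was -0.46, against -0.17 without libraries 6 and 8. All 8 macrophage markers were below 0, with sums of 32.8 to 42.5 FPKM with ammonium acetate and 23.9 to 63.3 FPKM with PBS, as were all 7 fibroblast and matrix markers, with sums of 206 to 341 FPKM with ammonium acetate and 204 to 562 FPKM with PBS. The median log2 fold changes were -0.34 for macrophage and -0.59 for fibroblast and matrix markers, against -0.25 and -0.34 without libraries 6 and 8. The 5 erythroid markers were below 0 as well, all 5 at an unadjusted p under 0.05 in limma, with 108 to 164 FPKM with ammonium acetate and 167 to 221 FPKM with PBS. Their median log2 fold change was -0.41, against -0.55 without libraries 6 and 8. Skin markers summed to 75.6 FPKM in ammonium acetate library 5 and to 1.29 FPKM or less in every other library. Reads from the mitochondrial chromosome were 9.78% to 12.5% with ammonium acetate and 10.3% to 13.3% with PBS. The part of these differences in the members' values was not tested.

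**Figure D5:**
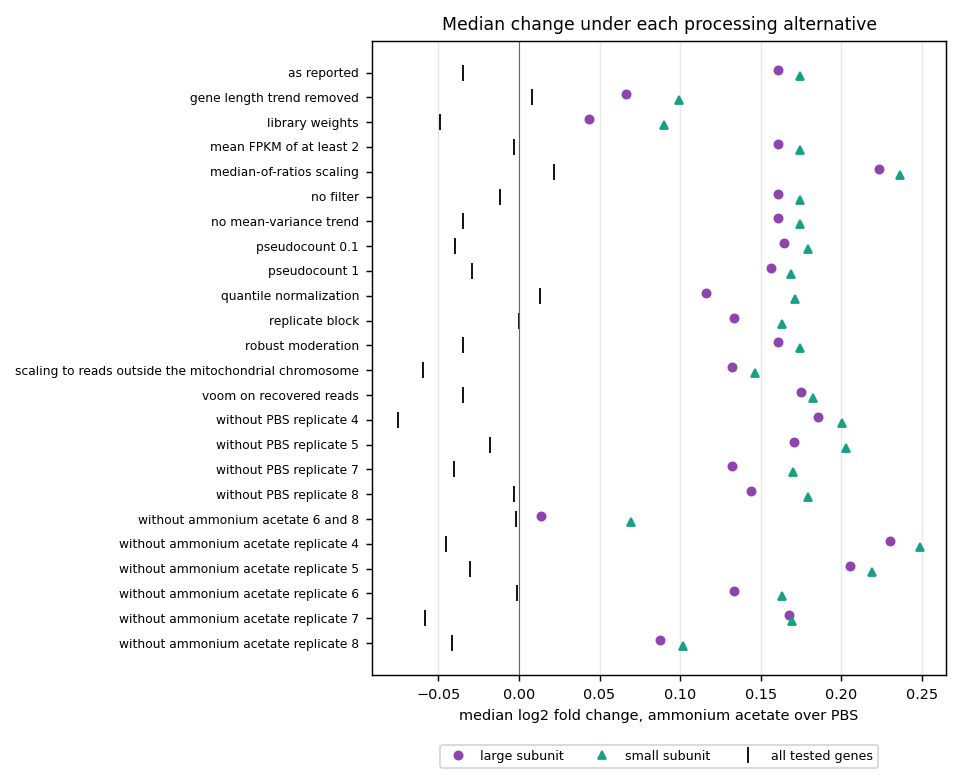
Median log2 fold change (ammonium acetate over PBS) of the large subunit, the small subunit and all tested genes as reported and under each of 23 alternatives. Both subunits stayed above 0 and above all genes in each of them. Their smallest medians, 0.01 for the large and 0.07 for the small subunit, came when ammonium acetate libraries 6 and 8 were left out.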

How the data were processed

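RNA sequencing of gastrocnemius gave 5 ammonium acetate and 4 PBS libraries. The values are FPKM in 1 table that the authors deposited. STAR, TopHat, HTSeq, DESeq2 and mm10 appear in the submitters' processing notes without version or role. The sources used here give neither the strand setting nor the treatment of multiply mapped reads. All values above 0 were whole reads within 0.05 read (100%), and no 2 libraries were identical. Genes with a mean of at least 0.5 FPKM (11337) were compared on the log2(FPKM + 0.5) scale by limma (version 3.58.1, R 4.3.3, variance trend on). The test was two-sided and p-values were adjusted by Benjamini-Hochberg, at a threshold of 0.05. The pseudocount understates changes of low genes. Of 152 list symbols, 150 were found, 10 by identifier or synonym. Shared exonic bases are from GENCODE M21 (76 members found). Named members are those of highest and lowest level, smallest p or known role in each subunit, those whose groups do not overlap or that hold a library apart, and 2 genes of smallest p per list. Members and lists were chosen with earlier results of these data known. The 23 alternatives covered pseudocount, filter, moderation, scaling, library weights, length trend, voom, the replicate block and libraries left out. Python 3.11.15 made tables and plots.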

Additional observations from a re-analysis of the deposited data

Results flagged for a closer look

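Of 152 groups of values screened over the members, 4 held a library far from the rest of its group by Dixon's criterion, which flags about 5% of groups by chance. Ammonium acetate library 8 had 93.8 FPKM of Mrpl2, where the other 4 ammonium acetate libraries reached at most 72.5 FPKM. PBS library 4 had 37.7 FPKM of Mrpl20 and 25.2 FPKM of Mrpl22, and PBS library 8 had 10.4 FPKM of Mrpl1, each the highest of its group.

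Outside the members, Gadd45gip1 reached 10.3 FPKM in ammonium acetate library 8, and Vars2 had its lowest value, 1.86 FPKM, in ammonium acetate library 6. The summed skin markers reached 75.6 FPKM in ammonium acetate library 5.

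Among the 4 pseudogene copies in the table, which the comparisons do not use, 2 had a mean with ammonium acetate above the highest PBS library. Mrps36-ps1 averaged 0.853 ± 0.763 FPKM with ammonium acetate (SD, n = 5) and 0.4996 ± 0.0849 FPKM with PBS (SD, n = 4). Mrpl23-ps1 averaged 2.07 ± 0.913 FPKM with ammonium acetate (SD, n = 5) and 1.22 ± 0.273 FPKM with PBS (SD, n = 4). The values in the ammonium acetate libraries spread widely, from 0.131 to 2.13 FPKM for Mrps36-ps1 and from 0.830 to 3.33 FPKM for Mrpl23-ps1.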

How the results depend on the processing

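Under the 23 alternatives no gene and no member passed the adjusted threshold, no member was lower at an unadjusted p under 0.05, and the median of the members stayed above 0 and above that of all genes, from 0.03 (without ammonium acetate libraries 6 and 8) to 0.24 (without ammonium acetate replicate 4). The count of 10 members at an unadjusted p under 0.05 was 5 with library weights, 1 with the replicate block and 2 without ammonium acetate libraries 6 and 8, where 4.22%, 1.1% and 1.22% of all genes were higher. With 1 library left out it ranged from 4 (without PBS replicate 8) to 24 (without ammonium acetate replicate 4). Over all genes, 1.39% and 5.74% were higher at that p without those libraries, and 3.21% as reported. The counts without PBS replicates 4, 5 and 7 and ammonium acetate replicates 6 and 8 were 6, 6, 5, 5 and 5. In the same order, 2.67%, 2.01%, 2.58%, 2.25% and 1.6% of all genes were higher at that p. Whether the replicate numbers pair the libraries is not settled here. In their deviations from the group means, the 4 same-numbered pairs correlated at -0.28, -0.07, -0.34 and -0.28, and 0 of 4 correlated best with its own number. With groups of 4 and 5 libraries, such correlations cannot show that no pairing existed. The replicate block leaves ammonium acetate library 6 without a partner, so the fold changes of the block are those without that library. Named genes that changed sign are given next, and the cause was not tested. Several were not close to 0 as reported, namely Mrpl11 (0.20), Tefm (0.20), Mrps30 (0.17), Mrps22 (0.17) and Mrpl42 (0.14). With the length trend removed, log2 fold changes were -0.0102 for Mrpl42, -0.00159 for Mrpl2, -0.092 for Mrpl20, -0.00995 for Mrps18c, 0.0765 for Mrps5 and -0.0429 for 1700021F05Rik. With library weights they were -0.122 for Mrpl3, -0.132 for Mrpl1, -0.00307 for Mrps30, -0.0176 for Mrps22, -0.00538 for 1700021F05Rik and -0.035 for Tefm. Median-of-ratios scaling gave 0.0281 for Mrpl45 and 0.0235 for Mrps5. The replicate block gave 0.0413 for Mrpl45, -0.0195 for Mrpl3 and -0.0382 for Mrpl1. Scaling to reads outside the mitochondrial chromosome gave -0.0204 for Mrpl3 and -0.0277 for Mrpl1. A pseudocount of 0.1 gave -0.00069 and voom gave -0.00197 for Mrpl1. Without ammonium acetate libraries 6 and 8, values were -0.0624 for Mrpl42, -0.0549 for Mrpl20, -0.00981 for Mrpl11, -0.0716 for Mrpl3, -0.158 for Mrpl1, -0.0661 for Mrps22 and -0.0138 for Tefm. With 1 library left out, ranges were -0.0244 to 0.146 for Mrpl20, -0.123 to 0.0413 for Mrpl45, -0.0834 to 0.0871 for Mrpl3, -0.0803 to 0.0935 for Mrpl1 and -0.0895 to 0.00169 for Mrps5. Every value of a tested member rests on at least 179 reads.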
